A study of Ovis aries with 16 samples.

Results

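SYCP1, SYCP2, C14orf39, MSH4 and HFM1 are 5 genes of meiotic chromosome synapsis and crossover formation, taken by name out of 25197 Ensembl genes in RNA-seq libraries of sheep testis. Their identifiers were found through the symbols that the study paired with genes it had picked on the comparison of diets, so these genes were already known to differ between the diets and their diet difference is a description: no p-value is given for them, and where the calls of a fit across all genes are printed beside their background share, nothing is read from these 5 genes' calls. The libraries came from 16 Merino male sheep aged 24 months, 8 on the High diet, fed to gain 10% of body mass over 65 days, and 8 on the Low diet, fed to lose 10% over the same 65 days. These were intact animals, for which the sources used here name no genetic or drug treatment during feeding. They were killed by pentobarbitone overdose. Each sheep gave 1 library of RNA mixed from the top, middle and bottom of the right testis. Library totals on genes ran between 9552149 and 18230076 reads in the High diet group and between 7646547 and 14690953 reads in the Low diet group.

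During prophase of the first meiotic division, spermatocytes cut their own DNA, pair the homologous chromosomes and join them along their length by the synaptonemal complex. This complex has lateral elements laid along each chromosome axis, transverse filaments that span the gap between the axes, and a central element where the filaments meet. A subset of the breaks is then turned into crossovers, which hold the homologues together until they are pulled apart. In the testis these genes are known for activity in germ cells that are entering or passing through meiosis, whereas Sertoli and Leydig cells do not undergo meiosis.

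The first question was how much of each transcript the testes of well-fed and underfed sheep contained. Levels are given in CPM, the reads on a gene per 1000000 reads on genes in that library. Whole testis RNA was measured, so fewer cells of a type and less RNA per cell cannot be told apart.

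SYCP1 (ENSOARG00000020082) encodes the transverse filament protein. In the High diet group its level had a lowest value of 69.9 CPM, a median of 234.6 CPM and a highest value of 321.1 CPM. In the Low diet group the lowest value was 14.2 CPM, the median 119.7 CPM and the highest value 167.0 CPM. The groups overlapped: 5 of the 8 High diet libraries stood above every Low diet library, while High diet replicate 2 lay below 6 of the underfed sheep, and only Low diet replicates 6 and 7 lay below all of the High diet group.

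SYCP2 (ENSOARG00000015458), a lateral element protein that partners SYCP3 on the chromosome axis, ran from 299.5 CPM through a median of 875.3 CPM to 1276.2 CPM in the well-fed sheep. In the underfed sheep it ran from 103.4 CPM through a median of 510.7 CPM to 707.5 CPM. The same arrangement was seen as for SYCP1, with 5 High diet libraries above all Low diet libraries and the same 2 Low diet libraries below all High diet libraries.

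C14orf39 (ENSOARG00000021127), also known as SIX6OS1, is a central element protein. It had a lowest value of 12.3 CPM, a median of 37.0 CPM and a highest value of 61.6 CPM on the High diet, against 1.09, 15.4 and 28.8 CPM on the Low diet. Low diet replicates 6 and 7 rested on 16 and 19 reads for this gene, with 95% Wilson intervals of 0.67 to 1.77 CPM and 1.13 to 2.76 CPM. These intervals cover counting error only. Here 3 underfed sheep, replicates 6, 7 and 8, lay below every well-fed sheep.

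MSH4 (ENSOARG00000012723) encodes a MutS homologue that, with MSH5, holds recombination intermediates on the way to becoming crossovers. It showed the narrowest range among well-fed sheep, from 77.0 CPM through a median of 114.2 CPM to 144.8 CPM, a 1.88-fold range. The Low diet group ran from 10.3 CPM through a median of 66.9 CPM to 117.5 CPM, an 11.4-fold range. Low diet replicate 1 held the highest of those values, and the other 7 underfed sheep were all below the lowest well-fed sheep.

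HFM1 (ENSOARG00000015812), a DNA helicase of the crossover pathway and the counterpart of yeast Mer3, ran from 65.6 CPM through a median of 112.2 CPM to 162.1 CPM on the High diet. On the Low diet it ran from 10.6 CPM through a median of 67.7 CPM to 114.4 CPM. The groups overlapped more than for MSH4: Low diet replicates 6, 7 and 8 were below all High diet libraries, and 4 High diet libraries were above all Low diet libraries.

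**Figure D1:**
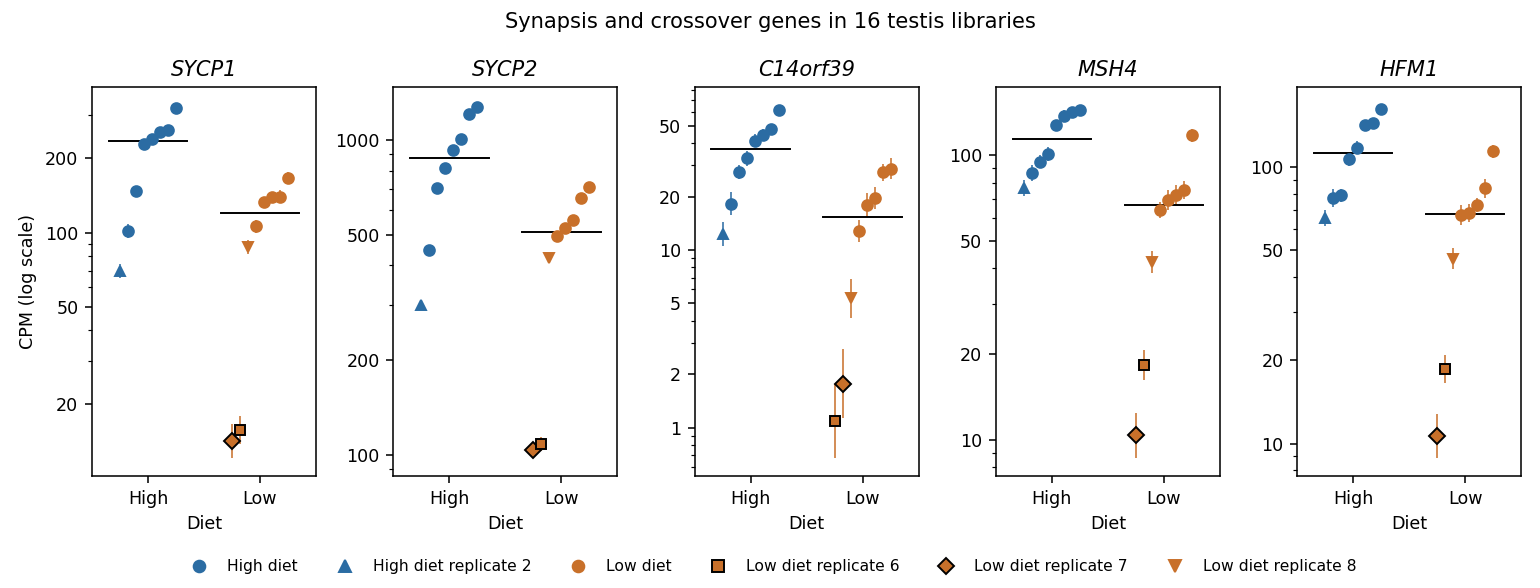
Level of each gene in CPM on a log scale, 1 point per sheep, sorted within each diet, with 95% Wilson intervals for counting error and the group median as a horizontal line. Low diet replicates 6 and 7 sit at the bottom of every panel, and High diet replicate 2 is the lowest of the well-fed sheep in each.

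Across the 5 genes the order of the sheep was much the same. Low diet replicates 6 and 7 held the 2 lowest of 16 values for every gene. Low diet replicate 8 was among the 4 lowest libraries for all 5 genes, and High diet replicate 2 for 4 of them. At the other end, High diet replicates 5, 6 and 8 were among the 4 highest for all 5. The Wilson intervals of replicates 6 and 7 overlapped for SYCP1, SYCP2 and C14orf39. For MSH4 they did not, with 18.3 CPM (16.2 to 20.6) in replicate 6 and 10.3 CPM (8.58 to 12.4) in replicate 7. HFM1 was likewise higher in replicate 6 than in replicate 7, at 18.6 CPM (16.5 to 20.9) against 10.6 CPM (8.84 to 12.8). These intervals cover counting error in single libraries and do not test the order of the 2 sheep.

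As means, SYCP1 was 203.2 ± 87.2 CPM (SD, n = 8) in well-fed and 100.4 ± 57.9 CPM (SD, n = 8) in underfed sheep, so that the former was 2.02 times the latter. The corresponding ratio was 1.87 for SYCP2, 2.50 for C14orf39, 1.94 for MSH4 and 1.86 for HFM1. On the scale log2(CPM divided by a TMM factor, which corrects for library composition, + 1), the Low diet mean minus the High diet mean was -1.80 (SE 0.53) for C14orf39, the largest difference of the 5 genes. It was -1.45 (SE 0.51) for SYCP1, -1.39 (SE 0.39) for MSH4, -1.29 (SE 0.40) for HFM1 and -1.23 (SE 0.44) for SYCP2.

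A fit across 11148 genes called a gene different when limma's adjusted p was under 0.1 and the ratio of mean CPM was above 1.5. By this rule 607 genes were lower in the Low diet group, 5.44% of those tested, and 1184 were higher, 10.6%. All 5 synapsis and crossover genes passed the filter on low values and were called lower, which follows from how they were chosen. The median difference of the 5 was -1.39, and that of all genes tested was 0.00.

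Low diet replicates 6 and 7 carried much of these differences. Without both, a choice made after seeing the values, the difference shrank to -0.71 (SE 0.33) for SYCP1, -0.64 (SE 0.32) for SYCP2, -1.09 (SE 0.40) for C14orf39, -0.83 (SE 0.24) for MSH4 and -0.72 (SE 0.27) for HFM1. That fit called 46 genes lower, 0.422% of 10898 tested, MSH4 being the 1 of the 5 among them. The means of the other 6 underfed sheep were 128.9 ± 28.2 CPM for SYCP1 and 73.5 ± 24.6 CPM for MSH4 (SD, n = 6). Without replicate 7 alone the differences lay between -1.53 and -0.98, with 4 of the 5 genes among the 5.67% called lower. Without replicate 6 alone they lay between -1.46 and -0.97, with C14orf39 and MSH4 among the 1.6% called lower.

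The 2 lowest libraries were then set beside the median of the other 6 underfed sheep, on the same log2 scale. In replicate 7 the distance was -3.05 for SYCP1, -2.69 for C14orf39, -2.51 for MSH4, -2.50 for HFM1 and -2.25 for SYCP2. In replicate 6 it was -3.15 for C14orf39, -3.01 for SYCP1, -2.29 for SYCP2, -1.85 for HFM1 and -1.83 for MSH4. SYCP1 and SYCP2 were thus about as low in replicate 6 as in replicate 7, while MSH4 and HFM1 were lower in replicate 7. C14orf39 was lower in replicate 6, with Wilson intervals that overlapped. The 1 added to CPM on this scale shortens the distance of a gene near 1 CPM. C14orf39 was such a gene, at 1.77 CPM in replicate 7 and 1.09 CPM in replicate 6. Its place in the order of the 5 genes therefore depends on the scale.

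Most genes did not lie so far off. Over 11148 genes the median distance was -0.19 in replicate 7 and 0.01 in replicate 6, and 1.26% and 0.942% of genes lay more than 2 log2 units below the other underfed sheep. SYCP1 was lower than all but 0.15% of genes in replicate 7 and all but 0.11% in replicate 6. The rule that picked these genes named replicate 7, and replicate 6 was singled out after seeing the values. Their ranks and lowest values in these libraries are therefore a description and not a test. Replicate 7 held the lowest of the 16 values for SYCP1, SYCP2, MSH4 and HFM1 and replicate 6 for C14orf39, where the background was 13.0% of genes with their lowest value in replicate 7 and 13.6% in replicate 6.

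Genes of spermatids were not uniformly low in these 2 libraries. The 4 with an identifier were SPACA1, CAPZA3, ZPBP and SPATA4. In replicate 6 all 4 lay below the median of the other 6 underfed sheep, between -1.18 and -0.92 log2 units, a smaller distance than for any of the 5 synapsis and crossover genes. In replicate 7 they were divided, with CAPZA3, a sperm actin capping subunit, at 1.05, SPATA4 at 0.61, SPACA1 at 0.07 and ZPBP at -1.41. Their sum was 1764 CPM in replicate 7, above the 788 to 1725 CPM of the other 6, but this rested on CAPZA3, since without it the sum was 453.9 CPM, within the 391.1 to 753.3 CPM of the other 6. In replicate 6 the sum was below that of the other 6 both with CAPZA3, at 557 CPM, and without it, at 256.1 CPM.

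Markers of somatic cells moved with the diets as well. Summed over the 5 Sertoli cell genes with an identifier of 10 listed (WT1, GATA4, FSHR, CLDN11 and INHA), the level was 112.5 to 163.6 CPM in the High diet group and 197.9 to 532.0 CPM in the Low diet group, with no overlap. Without CLDN11 the ranges were 57.2 to 107.5 CPM and 107.3 to 266.3 CPM, which overlapped. All 5 were called higher, beside 10.6% of all genes tested. These were again symbols that the study had picked on this comparison, so neither the calls nor the gap between the diets is independent evidence. The share of all genes without overlap between the diets was not worked out. Replicate 7 had the highest Sertoli cell sum of all libraries, which rested on CLDN11: without it the sum was 161.6 CPM in replicate 7 and 231.0 CPM in replicate 6, both within the 107.3 to 266.3 CPM of the other 6 underfed sheep. In replicate 7 GATA4 lay at -0.76 and INHA at -0.18 from their median, with WT1 at 0.06 and FSHR at 0.39. None of these markers was at 0 in any library, no spermatogonial marker had an identifier, and the part of the makeup of the tissue in the difference of the 5 genes was not tested.

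**Figure D2:**
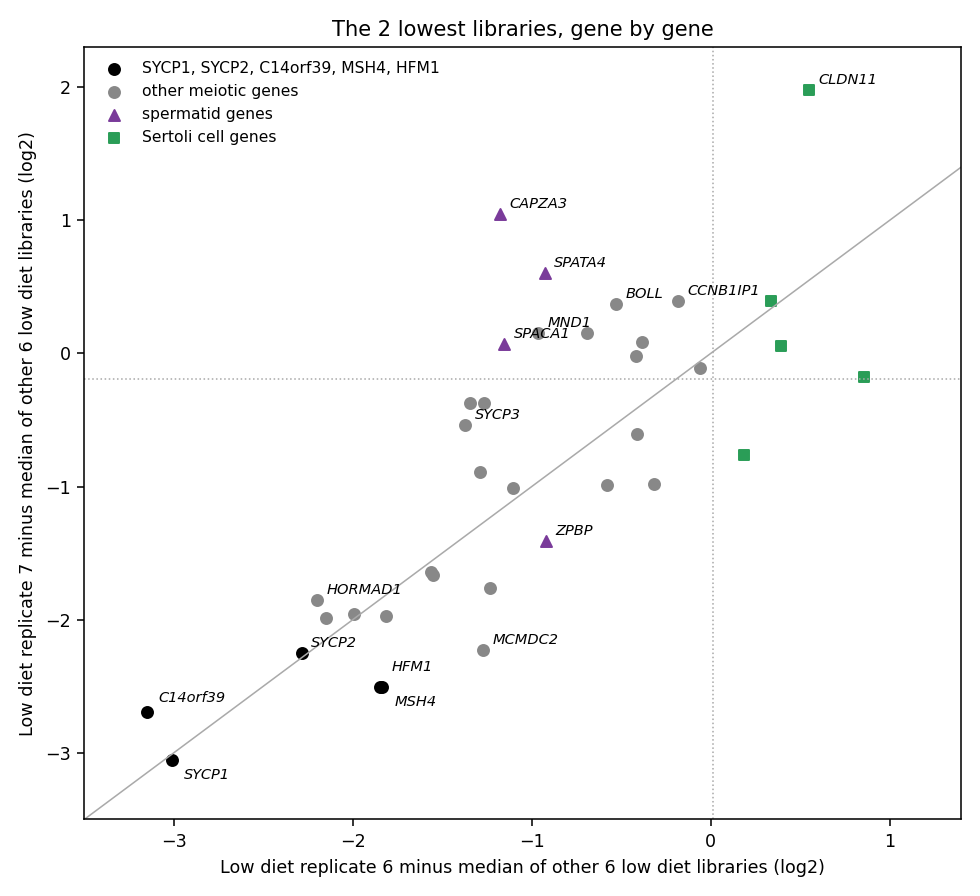
Distance of Low diet replicate 6 (x axis) and replicate 7 (y axis) from the median of the other 6 underfed sheep, in log2 units, for the 5 synapsis and crossover genes, other meiotic genes, spermatid genes and Sertoli cell genes. The solid line marks equal distance and dotted lines the median of all genes tested. The 5 genes lie at the lower left, while of the spermatid genes CAPZA3 (1.05 in replicate 7, -1.18 in replicate 6) lies at the upper left and ZPBP (-1.41 and -0.92) below the line.

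A wider list of 64 meiotic genes was drawn up by role, of which 28 had an identifier, the 5 genes included. All 23 others had a negative difference, from -1.46 to -0.61 with a median of -0.87, and 17 of them were called lower. Of all 11148 genes tested, 5556 had a negative difference and 5.44% were called lower. Because every identifier came from genes picked on this comparison, these counts and the counts by role below are no independent evidence of its direction.

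In the synaptonemal complex, SYCP1, SYCP2 and C14orf39 were joined by TEX12, a central element protein with a difference of -1.41 (SE 0.40), and by SYCP3, the partner of SYCP2, with -0.87 (SE 0.31). Both were called lower. C14orf39 and TEX12, which both belong to the central element, were low in the same 2 libraries. C14orf39 had 1.09 CPM in replicate 6 and 1.77 CPM in replicate 7, against 5.35 to 28.8 CPM in the other 6 underfed sheep. TEX12 had 1.91 and 1.49 CPM, against 4.72 to 16.1 CPM. SYCP3 stood apart from SYCP2 in replicate 7, at -0.54 log2 units from the median of the other 6 where SYCP2 was at -2.25.

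Of the 4 crossover genes, MSH4, HFM1 and C9orf84 were called lower. C9orf84 is also known as SHOC1, an XPF-like partner in the same pathway, and had a difference of -1.18 (SE 0.40). The exception was CCNB1IP1, the crossover regulator known as HEI10, with a difference of -0.61 (SE 0.23) and a ratio of means of 1.38, under the threshold. In replicate 7 CCNB1IP1 had 32.3 CPM, 0.39 log2 units above the median of the other 6 underfed sheep, where MSH4 and HFM1 were at about -2.5.

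In the steps that come before crossovers, SPO11, which cuts the DNA, was called lower at -1.04 (SE 0.24). The single-strand binding pair MEIOB and SPATA22 and the helicase-like MCMDC2 were called lower at -1.18, -1.46 and -1.34, whereas MND1, a strand invasion cofactor, was not called at -0.61 (SE 0.27). On the chromosome axis, HORMAD1 was called lower at -1.42 and HORMAD2 at -0.80, as were RAD21L1 and SGOL2. The cohesin subunit SMC1B, at -0.61 (SE 0.30), was not called. MND1 and SMC1B passed neither the adjusted p nor the ratio. Both genes of telomere attachment, CCDC79 and SPDYA, were called lower.

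Of the 7 genes of the meiotic programme and its exit, 4 were called lower (C17orf104, PSMA8, FBXO43 and BOLL). The other 3, YTHDC2, TDRD5 and MAEL, at -0.66, -0.61 and -0.62, were not. Their adjusted p passed, but their ratios of means, 1.34, 1.33 and 1.35, were under the threshold. Without Low diet replicates 6 and 7, all 23 other meiotic genes still had a negative difference, from -0.94 to -0.39, and 3 were called, SPO11, MEIOB and MCMDC2. Their median was then -0.73, beside -0.72 for SYCP1, SYCP2, C14orf39, MSH4 and HFM1.

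**Figure D3:**
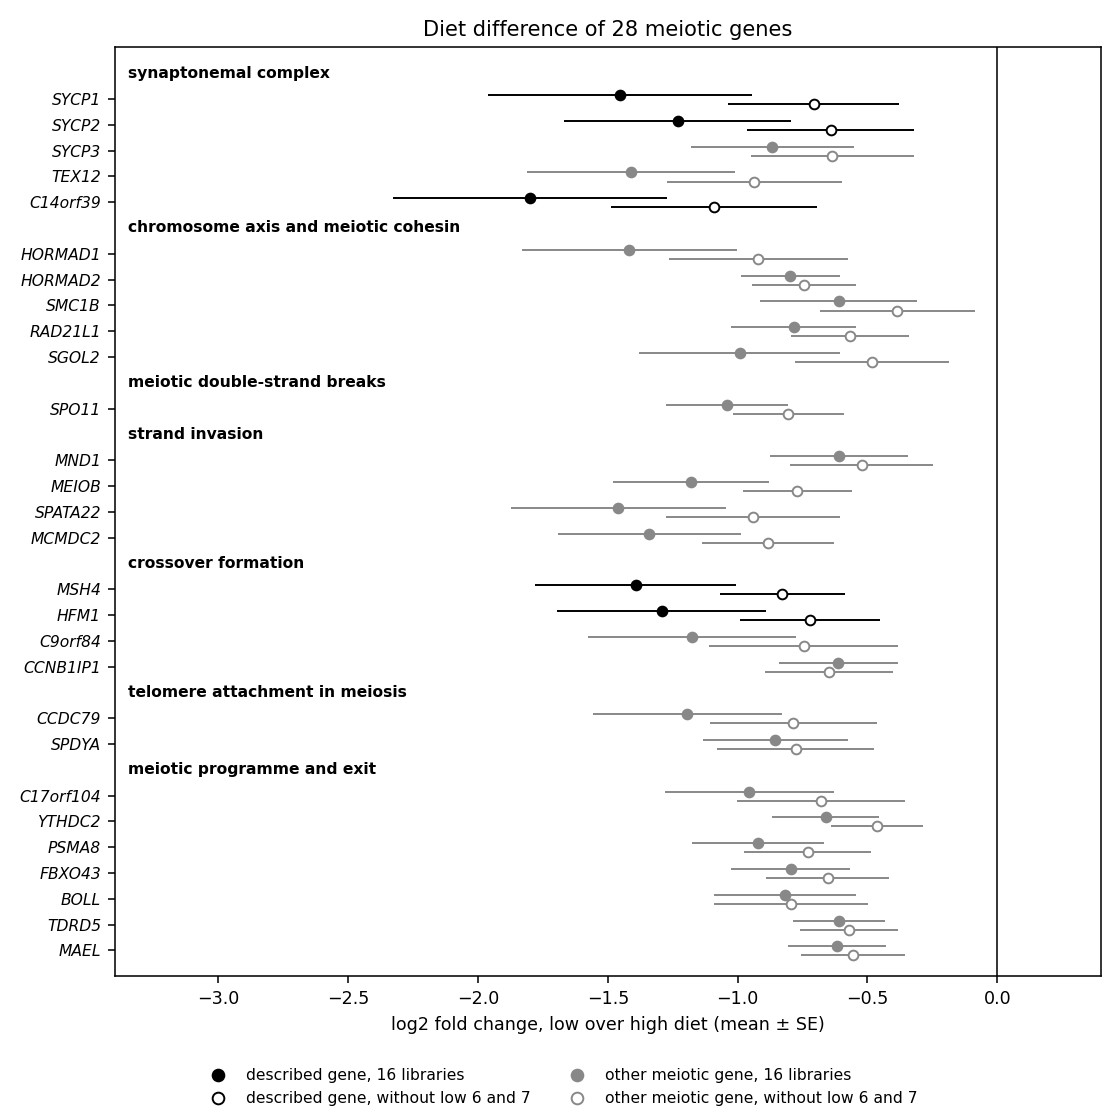
Difference between the diets (log2 fold change, Low over High, with its SE) of 28 meiotic genes by role, in all 16 libraries (filled) and without Low diet replicates 6 and 7 (open), with the 5 described genes in black. All points lie below 0, and the open points of the 5 lie between -1.09 and -0.64.

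The next question was how closely the 5 genes followed each other from sheep to sheep. Over all 16 libraries Pearson's r on the log2 scale lay between 0.93 and 0.99 for the 10 pairs, which describes values that also carry the difference between diets. Within each diet, r and Spearman's rho were tested by exact two-sided permutation, with p-values adjusted over the 10 pairs of a group. The genes of a library share its depth and the composition of its tissue, which differed between sheep, and the part of either in these relations was not tested.

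Among the 8 well-fed sheep r ran from 0.74 to 0.98 with a median of 0.91, and all 10 pairs passed an adjusted p of 0.05. The share of other gene pairs that would pass was not worked out in either diet. Counts of passing pairs therefore do not set these genes apart from others. SYCP1 and SYCP2 put the 8 sheep in the same order (rho 1.00, r 0.98, adjusted p 0.00025 by exact permutation), and SYCP2 with C14orf39 reached r 0.98. MSH4 and HFM1 were joined as closely, with r 0.97 and rho 0.98. The loosest pair was SYCP1 with MSH4, with r 0.74 and rho 0.81 (adjusted p 0.041 and 0.022 by exact permutation). Its r was 0.35 without the 2 sheep most distant from the SYCP1 median. Leaving out the extremes of a gene narrows its range, which by itself lowers r. The lower value therefore does not show that the relation rested on those sheep.

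In the Low diet group, r over all 8 sheep lay between 0.93 and 1.00, but replicates 6 and 7 formed a cluster of their own. Without replicate 7, r remained at 0.91 to 0.99 and all 10 pairs passed by Pearson's r, 8 of them by Spearman's rho. Without both, r over the other 6 ran from 0.60 for SYCP1 with MSH4 to 0.95 for MSH4 with HFM1. In those 6 sheep SYCP2 with HFM1 alone passed after adjustment (r 0.89, rho 0.94, adjusted p 0.028 for r and 0.083 for rho by exact permutation), the smallest unadjusted p that 6 sheep allow being 0.0014. MSH4 with HFM1 had an adjusted p of 0.085 for r and 0.17 for rho by exact permutation. Its r of 0.95 became -0.18 without the 2 sheep most distant from the MSH4 median. The sheep left spanned only 5.92 to 6.11 for MSH4 on the log2 scale, too narrow a range to judge the pair.

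The ratio of 2 genes within a library, which needs no scaling between libraries, showed the same pairs. HFM1 over MSH4 stayed between 0.83 and 1.14 in well-fed and between 0.91 and 1.16 in underfed sheep, with 1.01 in replicate 6 and 1.03 in replicate 7, while each of the genes varied over 10-fold in the Low diet group. SYCP2 over SYCP1 was 3.57 to 4.98 in well-fed sheep and 3.76 to 4.83 in 6 underfed sheep, but 6.88 and 7.30 in replicates 6 and 7. SYCP1 was therefore reduced further than SYCP2 in those 2 libraries. SYCP1 over MSH4 was less even, from 0.91 to 2.58 on the High diet and from 0.86 in Low diet replicate 6 to 2.31 on the Low diet. These ratios are not per length of transcript and say nothing of which gene was the more abundant.

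**Figure D4:**
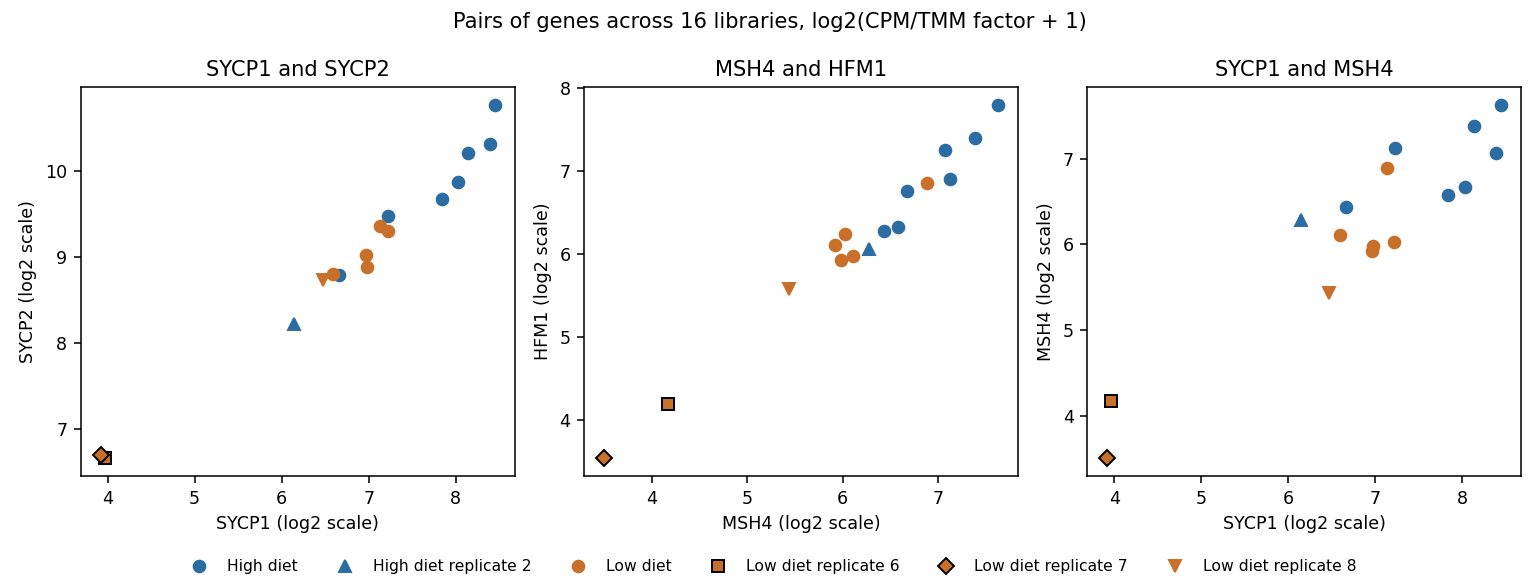
Levels of SYCP1 and SYCP2, of MSH4 and HFM1 and of SYCP1 and MSH4 on the scale log2(CPM divided by TMM factor + 1), 1 point per sheep. The first 2 panels are tight across both diets, and in the third the points scatter more, with r 0.74 among the well-fed sheep.

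Other genes were ranked by their mean r with the 5, over values of 16 libraries with each diet's mean removed, as a description. Of 11143 other genes the median of this mean r was -0.11, and 122 genes were above 0.9. The 5 most alike were ENSOARG00000020170 with 0.95, DBF4 with 0.95, RMI1 with 0.95, ENSOARG00000005381 with 0.95 and CENPK with 0.95. DBF4 is the regulatory subunit of a kinase of DNA replication, RMI1 belongs to a complex that dissolves recombination intermediates, and CENPK is a kinetochore protein, while the remaining pair had no symbol in the sources used here.

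Each of these genes was low in the same 2 sheep as the synapsis and crossover genes. Those 2 libraries were part of the ranking, so this follows in part from how the genes were picked. DBF4 had 84.7 CPM in Low diet replicate 6 and 53.4 CPM in replicate 7, against 232.0 to 349.7 CPM in the other 6 underfed sheep. CENPK had 1.84 and 0.838 CPM, against 11.4 to 32.5 CPM. Among the well-fed sheep alone their mean r with the 5 genes was 0.91 to 0.94, and among the 6 other underfed sheep 0.68 to 0.83. These sheep were part of the ranking too, so both ranges are a description and no separate check.

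Among the 23 other meiotic genes the mean r with the 5 ran from 0.23 for CCNB1IP1 to 0.94 for SPATA22, with a median of 0.75. It was above 0.9 for 4 (SPATA22, SGOL2, CCDC79 and C9orf84) and below 0.5 for 6 (HORMAD2, MND1, CCNB1IP1, BOLL, TDRD5 and MAEL). These 6 were the genes that followed SYCP1, SYCP2, C14orf39, MSH4 and HFM1 least. They lay between -0.11 and 0.39 log2 units from the median of the other underfed sheep in replicate 7. In replicate 6 they lay between -0.97 and -0.06. Both libraries were part of that mean r, so these distances are a description.

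Lastly, the level of each gene was set against testis traits known for the same sheep. There were 6 of them, namely testis weight, sperm number per testis, diameter of the seminiferous tubules, volume of the seminiferous epithelium, change in scrotal circumference and apoptotic germ cells per tubule. Pooled over both diets, r lay between 0.38 and 0.55 for the first 4 and between -0.29 and -0.27 for apoptotic germ cells, as a description, since both the genes and the traits differ between the diets. The change in scrotal circumference did not overlap between the diets and was not pooled.

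Within a diet none of the relations held. In each group 0 of 30 relations had an unadjusted p under 0.05 by exact two-sided permutation of r, 0 of 30 by Spearman's rho, and 0 passed after adjustment over the 30, the lowest adjusted p being 0.99 for r in both groups. With n = 8 per diet only strong relations could pass. The relations nearest to the threshold were those with sperm number per testis in the Low diet group, which had r of 0.33 to 0.43 and rho of 0.38 to 0.62 for the 5 genes, unadjusted p 0.30 to 0.46 for r by exact permutation, with C14orf39 the highest on both. Without Low diet replicates 6 and 7, r was -0.44 to 0.14 for the same trait.

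In the High diet group r with sperm number per testis was -0.26 to 0.24. Leaving out the 2 sheep with the most extreme values of the trait gave 0.52 to 0.79, and 0.23 to 0.47 in the Low diet group. Values without 2 sheep rest on 6 and were not tested. Over all traits and both diets they ran from -0.40 to 0.79. MSH4 and HFM1 behaved alike for apoptotic germ cells in the well-fed sheep, at r 0.17 and 0.17, and SYCP1 and SYCP2 at -0.29 and -0.16. Leaving out the 2 sheep most extreme for this trait gave 0.70 and 0.69 for MSH4 and HFM1. It gave 0.01 and 0.20 for SYCP1 and SYCP2. Testis weight gave r of -0.17 to 0.28 in well-fed and of -0.11 to 0.14 in underfed sheep, on both sides of 0 among the 5 genes. Without the 2 sheep most extreme for testis weight, r was 0.05 to 0.59 in well-fed and -0.40 to -0.27 in underfed sheep.

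**Figure D5:**
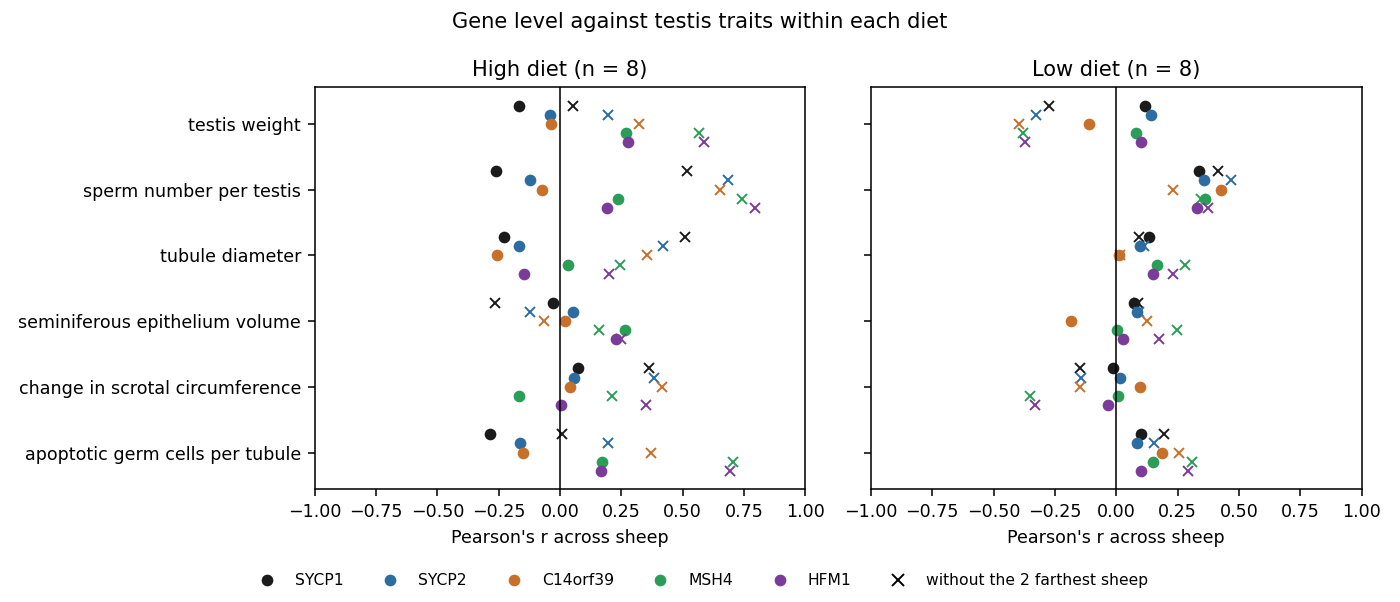
Pearson's r of each gene with each of 6 testis traits within the High diet (left) and Low diet group (right), n = 8 each, with crosses for r after leaving out the 2 sheep with the most extreme trait values (farthest from the group median). Circles lie between -0.29 and 0.43. Crosses, each from 6 sheep and not tested, lie between -0.40 and 0.79.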

How the data were processed

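Paired-end libraries of testis RNA, 1 per sheep, were made with a TruSeq mRNA kit, which the labels call stranded; the strand setting of the counting is not given in the sources used here. Per the submitters' processing notes the authors used CASAVA 1.8, TopHat2 2.0.10 on Oar_v3.1 and HTSeq, and they deposited CPM per Ensembl gene with no filter. All values (100%, tolerance 0.01 reads) were whole multiples of 1 read, so reads were recovered. Diets came from the labels. CPM were divided by TMM factors (0.736 to 1.13, edgeR 4.0.16), put on log2 with a pseudocount of 1 and fitted with limma 3.58.1 (trend) for genes above 5 CPM in 8 libraries; a call needed an adjusted p (Benjamini-Hochberg) under 0.1 and a ratio of mean CPM above 1.5. On recovered reads, edgeR's quasi-likelihood test called 1053 genes higher and 620 lower, and DESeq2 1.42.0 called 1484 and 675.

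No 2 libraries of a diet agreed within sampling noise, so each counted as 1 replicate. The fit was tested on simulated data. Correlations used exact permutation in Python 3.11.15 with scipy 1.17.1.

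The 5 genes and the lists of other genes were chosen with earlier results of these data known. The rule for the 5 genes named Low diet replicate 7 against the others. Named were the 5 genes, meiotic list genes by counts, and the 5 genes most alike by mean r. Symbols came from the study's tables of genes picked on the diets (28 of 64 meiotic and 13 of 48 marker genes had one), the longer of which was held only in part, so sums over the few markers with an identifier are values of those genes and not measures of a cell type (sums without CAPZA3 or CLDN11 were added after seeing the data). Trait values came from the study's trait table and are not printed. A further Sertoli cell gene, not counted among these, is not reported here. Genome positions and sequences were not analysed here, since the annotation at hand was of another build. The numbering of the sheep came from the labels, which state no pairs; same-numbered sheep deviated together (r above 0.1) in 2 of 8 pairs.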

Additional observations from a re-analysis of the deposited data

Results flagged for a closer look

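In 56 groups of 8 sheep (28 meiotic genes in each diet), Dixon's gap test, which compares the distance of an extreme sheep from its neighbour with the whole range, picked out 2 values, where chance gives 1 in 20 groups, or 2.8. SMC1B was low in Low diet replicate 6, at 111 CPM, and MAEL was high in Low diet replicate 1, at 588 CPM. SYCP1, SYCP2, C14orf39, MSH4 and HFM1 gave none; their values in Low diet replicates 6 and 7 lay near each other.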

How the results depend on the processing

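The difference between diets of SYCP1, SYCP2, C14orf39, MSH4 and HFM1 was negative in all 130 alternative values and moved by less than 1 SD between sheep. Leaving out 1 sheep at a time gave -1.66 to -1.13 for SYCP1, -1.44 to -0.97 for SYCP2, -2.03 to -1.46 for C14orf39, -1.61 to -1.10 for MSH4 and -1.50 to -1.0 for HFM1. Scaling by library totals moved the median of all genes to 0.17, relative to which the 5 lay between -1.81 and -1.23; it called 1563 genes higher and 455 lower, against 1184 and 607, and 4 of the 5 genes, with 4.08% of genes called lower. The number of genes called differed between settings, and the cause was not tested. Without a filter on low values, with more genes tested, 3 of the 5 were called, among 485 genes lower, 2.18% of 22284. At an adjusted p under 0.05, 2 of the 5 and 11 of the 23 other meiotic genes were called, among 591 higher and 258 lower (849 in all, 2.31% lower). Without Low diet replicates 6 and 7, 1 of the 5, 3 of the 23 and 328 higher and 46 lower genes (374 in all, 0.422% lower) were called, and 1 of 10 pairs within the Low diet group passed. Over the 16 fits without 1 sheep, 2 to 5 of the 5 and 7 to 18 of the 23 were called, with 491 to 1790 higher and 176 to 914 lower (667 to 2664 in all). High diet replicates 1, 5, 6 and 8 and Low diet replicates 4 and 6 each took the number of the 5 to 2 or 3 and the total to between 667 and 1033; High diet replicate 7 raised the higher count to 1790, Low diet replicate 1 raised the lower count to 914, and Low diet replicate 8 cut it to 393. Leaving out 1 sheep left 8 to 10 pairs in the High diet group, 10 in the Low diet group and 0 relations with traits.

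In a fit with a replicate block, 687 genes were called higher and 380 lower (1067 in all, 3.41% lower), C14orf39, MSH4 and HFM1 among them, and 12 of the 23. The numbers share no stated origin: the mean correlation of same-numbered sheep was -0.15, and 1 of 16 libraries correlated best with its own number. This pairing is given only as a check.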

Other observations

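Single markers of other cell types were also measured, again among symbols picked on this comparison. STAR, the cholesterol carrier of Leydig cells, was called lower in the Low diet group with a difference of -1.45 (SE 0.32), the same size as for SYCP1. PTPRC, a leukocyte marker, was called higher at 0.80 (SE 0.24), as were the smooth muscle genes MYH11 at 1.24 (SE 0.33) and DES at 0.88 (SE 0.21). In Low diet replicate 7 these genes lay between -0.61 and 0.37 log2 units from the median of the other 6 underfed sheep. Of the Sertoli cell genes, CLDN11, a tight junction protein, stood at 1.98 from that median in replicate 7, and GATA4, INHA, WT1 and FSHR between -0.76 and 0.39. In replicate 6 all 5 were above it, from 0.19 to 0.86.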
